A study of Populus trichocarpa with 18 samples.

Results

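In xylem protoplasts that had received only a reporter, 92 genes rose in transcript level between 12 and 25 h after transfection. From 7 to 12 h their mean level stayed about the same on the scale that chose them. These late-rising genes are 92 of the 40668 gene models compared, where the first model stands for each gene. They were chosen from the 9 sGFP libraries alone, from differences in log2(CPM + 1) between libraries of the same replicate number, where CPM is a gene's counts per 1000000 counts in first models. A member had to be higher at 25 h than at 12 h in all 3 numbers, with a mean difference of at least 1, which is a doubling on this scale. Its mean difference between 12 and 7 h had to lie between -0.3 and 0.3. Of 410 genes with this rise after 12 h, 302 had a mean 12 h minus 7 h difference over 0.3, 16 had one under -0.3, and the other 92 are described here.

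The libraries measured total RNA from Populus trichocarpa (black cottonwood) protoplasts, which are cells freed of their walls, made from stem-differentiating xylem of greenhouse plants. DNA was introduced by the polyethylene glycol (PEG) method, so every group, the control included, had gone through wall removal and transfection. The control groups received sGFP, a green fluorescent protein, and the other groups received PtrSND1-B1 together with sGFP. Each was sampled at 7, 12 and 25 h in 3 libraries, which gives 6 groups and 18 libraries.

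Differentiating xylem builds the cells of wood, which lay down a thick secondary wall of cellulose, hemicellulose and lignin. SND1 proteins are NAC-domain transcription factors that switch on this wall programme through a cascade of further regulators, and the study asked which transcripts follow PtrSND1-B1 in isolated xylem cells. Protoplasts kept in culture begin to rebuild walls and also change with the isolation itself, so a time course of the control shows what changes without the added regulator. No untransfected or freshly isolated cells are among the groups, so time in culture, transfection and expression of the reporter cannot be told apart in the sGFP series.

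The gene identifiers could not be given names. None of them matched the reference table of 34621 genes, so 0 members have a symbol, a product or a sequence here, and no role is assigned to any of them. Markers of xylem or of other cell types could not be looked up for the same reason, and neither could the transfected gene's own transcript. The protoplasts are bulk samples, in which fewer cells of a type and less RNA per cell cannot be told apart.

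First models held 2690853 to 13970708 counts per library, and both extremes were libraries of 25 h. The sGFP libraries of 25 h held 13970708, 2736863 and 7818035 counts in replicates 1, 2 and 3, and those of 12 h held 9107896, 6684101 and 4746555. A single read was therefore worth 0.0716 to 0.372 CPM, depending on the library. Nothing in the labels tells whether the 3 libraries of a group had separate plants or protoplast preparations behind them. The p-values therefore measure the spread between libraries only, and that spread may be technical.

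The late-rising genes were mostly weakly covered. A member had 59 to 28734 counts over all 18 libraries, with a median of 317.5, and 5 members had fewer than 100. The gene with the most reads supplied 25% of the members' counts, and the 5 with the most supplied 48%. In the sGFP libraries of 7 h, 12, 6 and 1 of the 92 members had 0 counts in replicates 1, 2 and 3. At 25 h none of them was at 0 in any sGFP library, which the rule fixes.

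In sGFP protoplasts the members' median level was 1.69, 1.56 and 1.47 CPM at 7 h and 1.76, 2.02 and 1.26 CPM at 12 h. It was 7.52, 7.86 and 4.99 CPM at 25 h, so the 3 libraries of 25 h stood above the other 6. Together the members took 0.0653 ± 0.0136% of the counts at 7 h, 0.0716 ± 0.0116% at 12 h and 0.195 ± 0.0693% at 25 h (SD, n = 3). The lowest library of 25 h was above the highest of 12 h for 66 of the 92 members (2.88% of all first models). These values chose the genes and are given as a description.

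**Figure D1:**
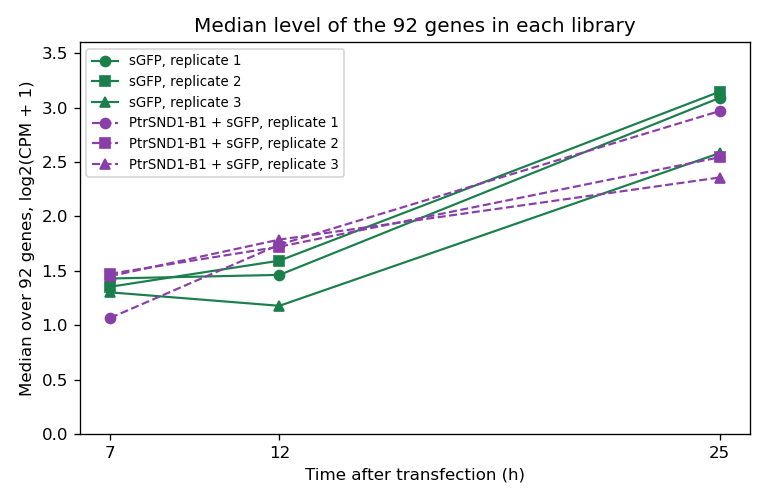
Median log2(CPM + 1) over the 92 late-rising genes in each library, on a linear axis from 0, against time after transfection in hours; points are libraries, lines join libraries of the same replicate number, and colours mark sGFP alone and PtrSND1-B1 with sGFP. The group means are 1.36, 1.41 and 2.94 at 7, 12 and 25 h for sGFP and 1.33, 1.75 and 2.62 for PtrSND1-B1, and in both series every library of 25 h is above all libraries of 7 and 12 h.

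The size of the rise in sGFP protoplasts was bounded from below by the rule. The mean 25 h minus 12 h difference had a median of 1.18 on the log2(CPM + 1) scale and ranged up to 2.31. For 33 of the 92 members it was between 1 and 1.1. The 2 members just inside the threshold had mean differences of 1.00314 and 1.00345, and the 2 nearest genes that met every other condition had 0.997 and 0.996. In all, 35 genes that met the other conditions had differences between 0.9 and 1, so the list has no gap at its lower edge.

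The rise was not equal among the replicate numbers. The members' median 25 h minus 12 h difference in sGFP protoplasts was 1.54 in number 1, 1.10 in number 2 and 1.00 in number 3, where the lowest member rose by 0.000649. Only 17 members rose by at least 1 in each number. The median over the 23777 gene models tested differed between the numbers as well, at 0.134, -0.0199 and -0.401. In number 3 both the members and all tested genes thus had their lowest median, and the part of the one in the other was not tested.

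On the log2(CPM + 1) scale the level between 7 and 12 h was steady as a mean of 3 numbers, less so within a number. The added 1 makes fold changes of weakly covered genes look smaller. Fitted by edgeR, the 12 h against 7 h log2 fold changes of the 83 tested members ran from -0.915 to 1.52 in sGFP protoplasts. Their median was 0.233. In sGFP protoplasts the single-number 12 h minus 7 h differences of the members spanned -1.03 to 1.41 in number 1, -1.13 to 1.17 in number 2 and -1.83 to 1.00 in number 3. Only 12 of the 92 members stayed within 0.3 in each of the 3 numbers, and 81 had differences of both signs. For 14 members at least 1 number moved by more than 1. The upper bound of the rule fell among neighbours, with a member at 0.299 and a non-member at 0.301, and the lower bound fell between -0.283 and -0.31.

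**Figure D2:**
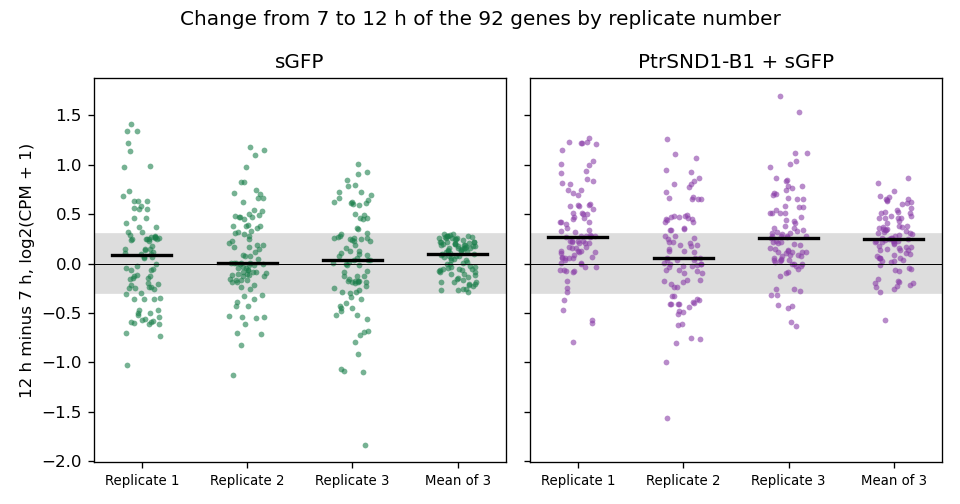
The 12 h minus 7 h difference in log2(CPM + 1) of the 92 late-rising genes for each replicate number and as the mean of the 3, in sGFP (left) and PtrSND1-B1 (right) protoplasts; each point is a gene, bars are medians and the band marks -0.3 to 0.3, the range the rule set for the sGFP mean. In sGFP protoplasts single-number differences reach -1.83 and 1.41, and in PtrSND1-B1 protoplasts 39 of the means lie above the band.

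POPTR_0007s10350.1 had the largest mean rise of the members in sGFP protoplasts. Its level there was 2.26, 1.78 and 1.1 CPM at 7 h, 2.85, 2.84 and 0.843 CPM at 12 h and 24.4, 13.2 and 8.19 CPM at 25 h. All 3 libraries of 25 h were above the other 6, and replicate 3 was the lowest at every time. In PtrSND1-B1 protoplasts it was at 1.1, 1.24 and 1.81 CPM at 7 h, 3.01, 2.01 and 3.22 CPM at 12 h and 18.9, 12.6 and 6.73 CPM at 25 h. The 3 times did not overlap in these libraries, and its 12 h level already lay above that of 7 h.

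In PtrSND1-B1 protoplasts POPTR_0007s10350.1 averaged 2.75 ± 0.645 CPM at 12 h and 12.8 ± 6.1 CPM at 25 h (SD, n = 3). The log2 fold change was 2.29 (SE 0.48, edgeR quasi-likelihood test, Benjamini-Hochberg adjusted p = 0.0407). A fit that blocks on the replicate number gave 2.22 (SE 0.35, edgeR adjusted p = 0.00135). The 12 h against 7 h change of 1.05 did not pass the test (SE 0.55, edgeR adjusted p = 0.444). Over the alternatives tried, the edgeR or DESeq2 adjusted p for 25 h against 12 h ran from 0.00135 to 0.195, and the call was lost under 14 of them, among them each one that left out a PtrSND1-B1 library of 12 h.

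POPTR_0001s36510.1 was the member with the smallest p in PtrSND1-B1 protoplasts. In sGFP protoplasts it was at 2.82, 4.0 and 5.5 CPM at 7 h, 4.61, 4.79 and 6.11 CPM at 12 h and 15.3, 13.2 and 17.0 CPM at 25 h. The corresponding PtrSND1-B1 values were 3.73, 3.38 and 4.53 CPM, then 3.51, 2.87 and 4.94 CPM, then 12.9, 6.69 and 14.4 CPM. In both series every library of 25 h was above every library of 7 and 12 h, and in PtrSND1-B1 protoplasts the libraries of 7 and 12 h overlapped. This gene only just met the condition of a steady start. Its sGFP 12 h minus 7 h differences were 0.553, 0.211 and 0.129 in numbers 1, 2 and 3. Their mean was 0.298, against the bound of 0.3.

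The PtrSND1-B1 mean of POPTR_0001s36510.1 was 3.88 ± 0.591 CPM at 7 h, 3.77 ± 1.05 CPM at 12 h and 11.3 ± 4.08 CPM at 25 h (SD, n = 3). Its log2 fold change from 12 to 25 h was 1.71 (SE 0.34, edgeR adjusted p = 0.033), and with the block it was 1.71 (SE 0.24, edgeR adjusted p = 0.000625). From 7 to 12 h it was 0.03 (SE 0.35, edgeR adjusted p = 0.982). Over the alternatives tried, the edgeR or DESeq2 adjusted p for 25 h against 12 h ran from 0.000625 to 0.131, and it was 0.122 by edgeR with only PtrSND1-B1 libraries. Without a block the call was also lost when replicate 1 of 7 h, any replicate of 12 h, or replicate 1 or 3 of 25 h in PtrSND1-B1 protoplasts was left out. Its identifier stands next to that of another member in the file, the only such neighbours among the 92. That second gene had 162 counts in all against 795 for POPTR_0001s36510.1, and its mean rise after 12 h was 1.64 ± 1.05 in sGFP and 1.33 ± 0.657 in PtrSND1-B1 protoplasts (SD, n = 3).

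The gene with the most reads showed the same course at much higher counts. In sGFP protoplasts it was at 169, 187 and 139 CPM at 7 h, 249, 171 and 164 CPM at 12 h and 634, 324 and 299.7 CPM at 25 h. In PtrSND1-B1 protoplasts it was at 181, 189 and 131 CPM, then 238, 146 and 149.6 CPM, then 591, 349.7 and 277 CPM. Again no library of 25 h overlapped with one of 12 h, although replicate 1 was well above the others at 25 h in both series. Its log2 fold change in PtrSND1-B1 protoplasts, 1.26 (SE 0.37), did not pass the test without a block (edgeR adjusted p = 0.134) and passed it with the block (SE 0.21, edgeR adjusted p = 0.0022).

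**Figure D3:**
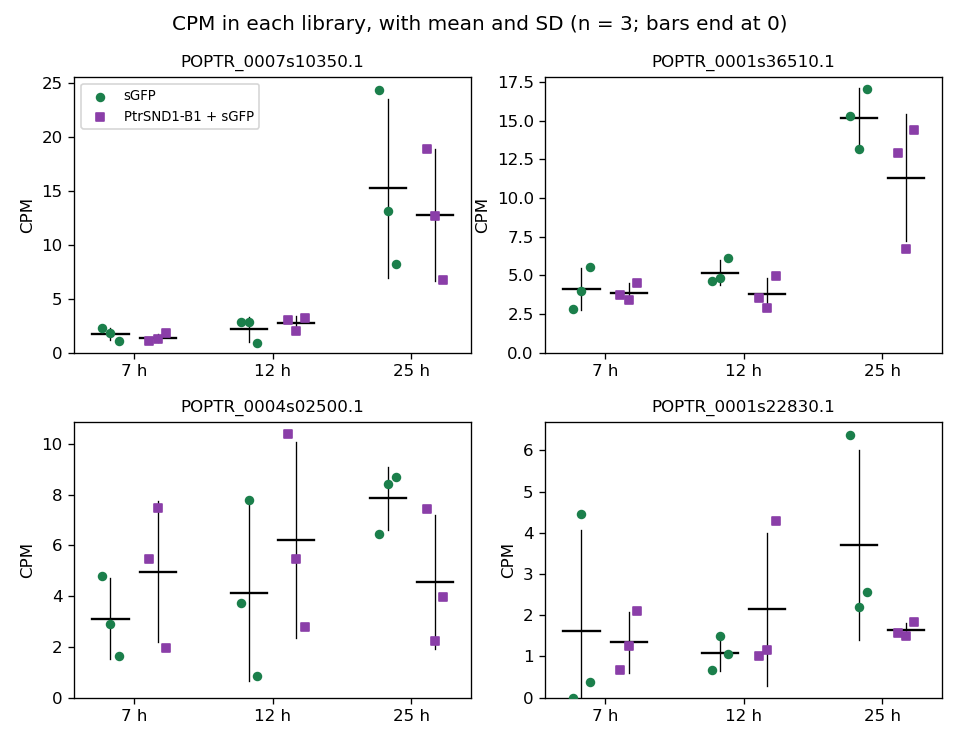
CPM in each library, with mean and SD (n = 3, bars ending at 0), of the 4 late-rising genes named by identifier, at 7, 12 and 25 h in sGFP and PtrSND1-B1 protoplasts; each panel has its own linear axis from 0. POPTR_0007s10350.1 and POPTR_0001s36510.1 are higher in every library of 25 h than in every library of 12 h in both series. The other 2 are not in PtrSND1-B1 protoplasts, and POPTR_0004s02500.1 is not in sGFP protoplasts either.

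The PtrSND1-B1 libraries were not used to choose the members, and there the late rise could be read again. They are not fully separate from the sGFP libraries, however. Libraries of the 2 constructs with the same time and number deviated together from their group means, with correlations of 0.345 to 0.752 over the 9 such pairs (median 0.658). The labels do not say what such a pair shares. What this adds to the likeness of the 2 series was not tested.

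In PtrSND1-B1 protoplasts 87 of the 92 members had a mean 25 h minus 12 h difference above 0, which was not counted over all first models. The median was 0.88 on the log2(CPM + 1) scale and the range -0.347 to 2.28. The members' median level there was 1.1, 1.78 and 1.74 CPM at 7 h, 2.34, 2.3 and 2.47 CPM at 12 h and 6.83, 4.83 and 4.13 CPM at 25 h. Every library of 25 h was above every library of 12 h, and every library of 12 h was above every library of 7 h. The members' share of the counts was 0.0655 ± 0.016% at 7 h, 0.0741 ± 0.00936% at 12 h and 0.167 ± 0.0509% at 25 h (SD, n = 3).

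The difference was above 0 in all 3 numbers for 64 members, against 7.63% of all first models and 11.0% of those tested. It was above 0 in 2 numbers for 22 members and in 1 number for 6. The lowest library of 25 h was above the highest of 12 h for 43 members, against 3.1% of all first models. As in the control, number 3 had the smallest rise, with medians of 1.12, 0.99 and 0.57 over the members in numbers 1, 2 and 3. Over all tested models the medians were 0.042, -0.072 and -0.339.

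**Figure D4:**
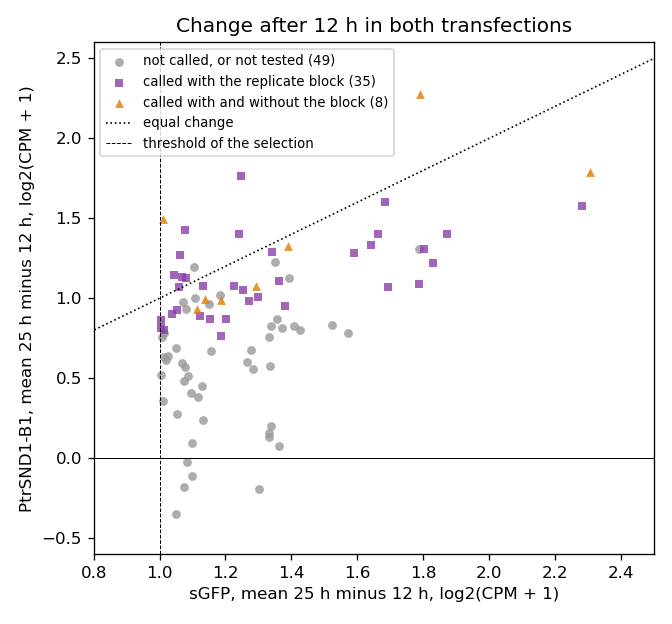
Mean 25 h minus 12 h difference in log2(CPM + 1) of each of the 92 late-rising genes in PtrSND1-B1 protoplasts against that in sGFP protoplasts, which chose them and is therefore at least 1 (dashed line); the dotted line marks equal values. Triangles are the 8 genes edgeR called in PtrSND1-B1 protoplasts with and without the replicate block, squares the other 35 called with it, and circles the 49 not called or not tested; 87 of the 92 are above 0.

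Of the 92 members, 83 had enough reads for the test across 23777 models and 9 did not. Only 52 of the 83 would have passed that filter without the libraries of 25 h, so the tested members are in part those that were high at 25 h, and the counts of calls are no support for the rise. Between 12 and 25 h in PtrSND1-B1 protoplasts, 8 members rose at an edgeR adjusted p under 0.05, against 0.421% of all models tested, and 0 fell, against 0.294%. An unadjusted p under 0.05 was reached by 53 members, all higher at 25 h, and by 0 that were lower. Shares of all models at an unadjusted p under 0.05 were not counted, here or below, so such counts are a description. The 8 had log2 fold changes of 1.05 to 3.90, were higher at 25 h in all 3 numbers and also passed the test between 7 and 25 h. Of these 8, 6 would have passed the filter without the libraries of 25 h.

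Blocking on the replicate number, edgeR called 43 members higher at 25 h than at 12 h, against 3.91% of all models, and 0 lower, against 4.68%. The 8 were among these 43, of which 31 would have passed the filter without the libraries of 25 h. DESeq2 called 13 of the 83 higher, against 1.3% of all models, and gave no adjusted p for 14. The count without a block changed with single libraries, where 83 to 88 members were tested. It was 1, 1 and 7 without replicates 1, 2 and 3 of PtrSND1-B1 at 7 h, 2, 0 and 0 without those of 12 h, and 1 or 3 without replicates 2 or 3 of 25 h. Without replicate 1 of 25 h it was 0. The sGFP libraries enter this comparison through the filter, the scaling and the estimate of spread, and leaving out 1 of them gave 4, 2 and 5 at 7 h, 5, 3 and 5 at 12 h and 4, 2 and 7 at 25 h, again for replicates 1, 2 and 3.

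The whole course from 7 to 25 h was called for more members. In PtrSND1-B1 protoplasts 52 of the 83 rose, against 8.12% of all models by edgeR, and 0 fell, against 8.68%. With the block 66 rose, against 14.4%. Without the libraries of 25 h, 31 of the 52 and 41 of the 66 would have passed the filter. The lowest library of 25 h was above the highest of 7 h for 61 of the 92 members, against 7.51% of all first models. The count of 52 was 34 of 86 tested without replicate 3 of PtrSND1-B1 at 7 h. It was 30 of 84 tested without its replicate 1 at 25 h.

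Between 7 and 12 h the PtrSND1-B1 libraries gave no call among the members. By edgeR 0 of 83 were higher, against 0.118% of all models, and 0 were lower, against 0.0883%. An unadjusted p under 0.05 was reached by 8 members, all higher at 12 h, with no share of all models counted at that level. DESeq2 also called 0 and gave 30 no adjusted p, and its unadjusted p was under 0.05 for 8. The replicate block gave 0 calls, against 2.97% of all models higher and 4.22% lower, with 14 members at an unadjusted p under 0.05.

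The rule had required a steady mean level up to 12 h in sGFP protoplasts only. The mean 12 h minus 7 h difference in PtrSND1-B1 protoplasts had a median of 0.245 and ran from -0.568 to 0.862. It was above 0 for 76 of the 92 members. It lay within 0.3 for 52 members, or 56.5%, against 69.0% of all first models and 57.1% of the models with enough reads to be tested. It was over 0.3 for 39 members, or 42.4%, against 12.8% and 18.7%. It was under -0.3 for 1 member, against 18.2% and 24.2%. In 35 members it was above 0 in all 3 numbers, and 51 members had both signs. Shares of all first models were not counted for these signs, nor for the 76 members with a mean above 0. The lowest library of 12 h was above the highest of 7 h for 12 members, against 3.18% of all first models.

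Both conditions together were met by few. The rise after 12 h, as the rule defines it, was met in the PtrSND1-B1 libraries by 35 of the 92 members, against 1.04% of all first models and 1.72% of those tested. The whole rule was met by 21 members, against 0.224% and 0.341%. In all 91 genes met the whole rule in those libraries, so the shared 21 are 22.8% of the members and 23.1% of that other list.

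Smaller sets of members were also followed in PtrSND1-B1 protoplasts. They were chosen on the sGFP values and are described only. Each of the 12 members that stayed within 0.3 from 7 to 12 h in every sGFP number was above 0 from 12 to 25 h in all 3 PtrSND1-B1 numbers, with a median of 0.91, and 10 of the 12 had a mean 12 h minus 7 h difference within 0.3 there. Each of the 17 that rose by at least 1 in every sGFP number was also above 0 from 12 to 25 h in all 3 PtrSND1-B1 numbers, with a median of 1.31. Over all 92 members, 8 rose by at least 1 in each PtrSND1-B1 number. In PtrSND1-B1 protoplasts 10 of these 17 were already over 0.3 from 7 to 12 h.

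The members were also split by coverage. Among the 46 members with the higher mean over all libraries, 2.92 to 255 CPM, 37 rose in all 3 PtrSND1-B1 numbers and the median rise was 0.94. Among the other 46, at 0.471 to 2.82 CPM, 27 did and the median was 0.81. The mean used for the split includes the PtrSND1-B1 libraries of 25 h, so the split is not independent of the rise compared here. The part of read depth in this was not tested.

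In PtrSND1-B1 protoplasts 5 members had a mean 25 h minus 12 h difference that was not above 0, from -0.347 to -0.024. The SD of their 3 sGFP differences ran from 0.350 to 1.20, around the median of 0.547 over all 92 members. The 2 members with the lowest fitted changes are shown by library. POPTR_0004s02500.1 was at 4.8, 2.89 and 1.65 CPM in sGFP protoplasts at 7 h, 3.73, 7.78 and 0.843 CPM at 12 h and 6.44, 8.4 and 8.7 CPM at 25 h. Its sGFP differences after 12 h were 0.65, 0.10 and 2.40 in numbers 1, 2 and 3, so most of the mean came from number 3. In PtrSND1-B1 protoplasts it was at 5.48, 7.46 and 1.96 CPM, then 10.4, 5.46 and 2.79 CPM, then 7.42, 2.23 and 3.98 CPM. The 3 times overlapped there, and the 25 h against 12 h log2 fold change was -0.34 (SE 0.69, edgeR adjusted p = 0.882). Without replicate 1 of PtrSND1-B1 at 12 h it was 0.43.

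POPTR_0001s22830.1 had few reads. In sGFP protoplasts it was at 0, 4.45 and 0.367 CPM at 7 h, 0.659, 1.5 and 1.05 CPM at 12 h and 6.37, 2.19 and 2.56 CPM at 25 h. In PtrSND1-B1 protoplasts it was at 0.657, 1.24 and 2.11 CPM, then 1.0, 1.15 and 4.29 CPM, then 1.56, 1.49 and 1.84 CPM. A single library, replicate 3 at 12 h, was the highest of these 9. The 25 h against 12 h log2 fold change was -0.26 (SE 0.89, edgeR adjusted p = 0.934), and without that library it was 0.66.

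The 2 constructs were also set side by side at each time. The sGFP libraries of this comparison chose the members, so its values are a description. By edgeR 0 of 83 members were called higher with PtrSND1-B1 at 7 h (0.0589% of all models), at 12 h (0.00841%) and at 25 h (0.00421%), and 0 were called lower (0.0% at each time). An unadjusted p under 0.05 was reached by 1 member at 7 h, 0 at 12 h and 5 at 25 h, all lower with PtrSND1-B1. The median log2 fold change of PtrSND1-B1 against sGFP over the tested members was -0.06 at 7 h, 0.16 at 12 h and -0.26 at 25 h. In a fit with a term for each time and replicate number, edgeR called 1 member lower at 7 h (1.86% of all models), 0 lower at 12 h (0.774%) and 4 lower at 25 h (0.286%).

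The difference between the 2 changes was fitted as well. By edgeR 0 members were called for a different change from 12 to 25 h (0.0% of all models), with a median of -0.45 in PtrSND1-B1 minus sGFP over those tested. An unadjusted p under 0.05 was reached by 3 members, or 5 with the replicate block, all with the smaller rise in PtrSND1-B1. From 7 to 12 h 0 were called (0.0%), with a median of 0.34. An unadjusted p under 0.05 was reached there by 0 members, or 1 with the block. A larger sGFP rise and a flatter sGFP start are what the rule selected, so nothing is read from either median. For the same reason the sGFP tests are given only as counts by edgeR, with 16 members higher from 12 to 25 h (0.45% of all models), 75 with the block (4.44%) and 64 higher from 7 to 25 h (8.68%).

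The genes that shared the rise after 12 h but had moved earlier were compared in the PtrSND1-B1 libraries, which chose neither. The 302 with an earlier rise in sGFP protoplasts had a median 25 h minus 12 h difference of 1.43 in PtrSND1-B1 protoplasts, and all 302 were above 0. The 92 late-rising genes had 0.88 and the 16 with an earlier fall had 0.883, with 15 of 16 above 0. From 7 to 12 h the medians were 0.897, 0.245 and -0.195 in the same order. For this earlier change the medians of the classes stood in the order by which the sGFP libraries had defined them. Libraries of both constructs with the same time and number deviated together, and what this adds to that order was not tested. These are counts and medians of chosen lists, and the difference between the lists was not tested. The share of all first models with a mean difference above 0 was not counted. Some genes of the classes with an earlier rise or fall have nearby identifiers and equal or nearly equal values. They may not be separate measurements.

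Of the 301 tested genes of the first of these classes, edgeR called 18 higher from 7 to 12 h in PtrSND1-B1 protoplasts (0.118% of all models). With the block it called 140 (2.97% of all models). From 12 to 25 h it called 46 higher (0.421%), or 252 with the block (3.91%). Among the 83 tested members the corresponding counts were 0 and 0 before 12 h, then 8 and 43 after it.

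**Figure D5:**
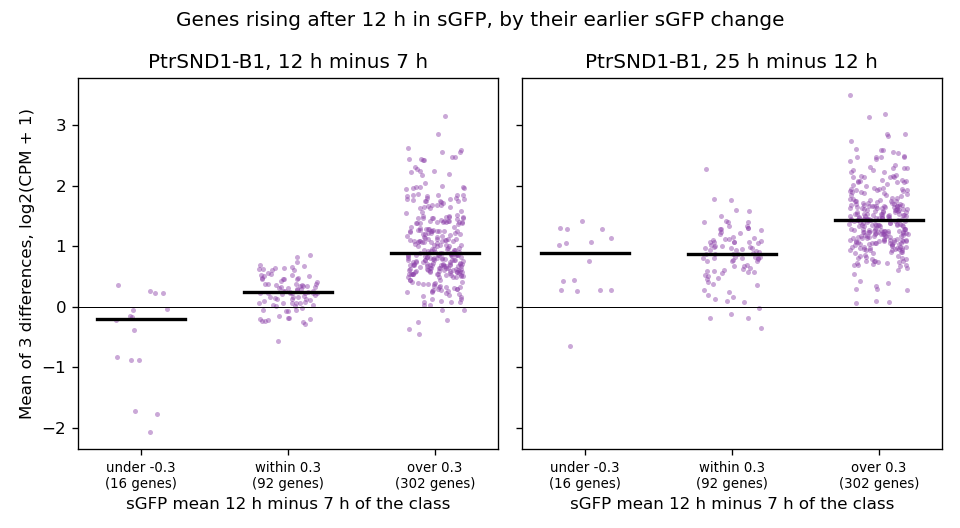
Mean 12 h minus 7 h (left) and mean 25 h minus 12 h (right) differences in log2(CPM + 1) in PtrSND1-B1 protoplasts for the 16 genes that fell before 12 h in sGFP protoplasts, the 92 late-rising genes and the 302 that also rose before 12 h; each point is a gene and bars are medians. From left to right the medians are -0.195, 0.245 and 0.897 in the left panel, then 0.883, 0.88 and 1.43 in the right panel.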

How the data were processed

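RNA-seq counts were analysed for 18 libraries, grouped by construct, time and replicate number from their titles. The authors deposited raw counts of reads per gene model, as whole numbers, with 45033 models in the file. The tools listed in the submitters' processing notes are TopHat and edgeR, with no role or version. Genome build, annotation, counting tool and strandedness were not given in the sources used here, so counts of close copies, overlapping genes and antisense partners are uncertain. Only the first model of each of 40668 genes was used. Of 9 further models of 3 members, 5 held the same values as the first.

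CPM was computed per 1000000 counts in first models, and log2(CPM + 1) was used to choose members. Tests used edgeR 4.0.16 in R 4.3.3 with a quasi-likelihood model, TMM scaling (factors of 0.797 to 1.09), filterByExpr and a mean per group over all 18 libraries (12 residual degrees of freedom). P-values were adjusted by Benjamini-Hochberg over 23777 models, with calls under 0.05. The standard error is the log2 fold change divided by the square root of F. The scripts were tested on simulated counts. DESeq2 1.42.0, other scalings and filters, left-out libraries and a replicate block were tried.

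The labels give no meaning to replicate numbers. Deviations from group means of same-numbered PtrSND1-B1 libraries correlated at 0.102 to 0.653 between times, all over 0.1. The numbers were therefore taken to pair libraries, from the data and not the labels. Among the fits, those with the replicate block and the paired fit use this pairing, and the main test does not. Of PtrSND1-B1 pairs with different numbers and times, the highest was 0.185. Same-numbered sGFP pairs ran from 0.0555 to 0.648 between times, so not all were over 0.1. The highest sGFP pair with different numbers was 0.265. The paired fit and some alternatives were added after seeing the data.

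The members and lists were chosen with earlier results of these data known. The rule for naming genes took members with the largest or smallest rise, the smallest p, the lowest PtrSND1-B1 change or the most reads. Since 0 identifiers matched the reference table (P. trichocarpa v4.1 annotation), only 2 that rose and 2 at the low end of the change are printed, and the lists by product name, cell type markers and promoters could not be used.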

Additional observations from a re-analysis of the deposited data

How the results depend on the processing

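From 12 to 25 h in PtrSND1-B1 protoplasts, 8 of 83 tested members were called higher (0.421% of all models). Of the 83, the count was 2 with library-size scaling, 13 with DESeq2 (1.3%) and 43 with the replicate block (3.91%). With no low-count filter it was 2 of 92. With only PtrSND1-B1 libraries 60 members were tested, and 0 were called, or 30 with the block. With each library left out in turn, 83 to 88 members were tested and 0 to 7 were called. Shares of all models were not counted for the other settings. The blocked count of 43 became 25 to 47, with 25 without PtrSND1-B1 replicate 2 of 12 h or replicate 1 of 25 h and 28 without replicate 2 of 25 h. The causes were not tested. Library-size scaling moved the median of all models from -0.01 to -0.13. From 7 to 12 h the count was 0 in every alternative run, and from 7 to 25 h the 52 became 30 to 58 with a library left out.

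The 16 sGFP calls from 12 to 25 h became 75 with the replicate block. For PtrSND1-B1 against sGFP, 0 calls became 1 at 7 h and 4 at 25 h in the paired fit. The block changed no other count of member calls by over 1.5 times. The 92 members became 15 with a rise threshold of 1.5, 59 with a range of 0.2, and 109 to 291 with a replicate number left out, without the limit of 300 genes. Of the 92 members, 30 remained without number 1, 59 without number 2 and 58 without number 3. TMM scaling gave 108, of which 75 were members, and a pseudocount of 0.5 gave 126, of which 76 were. With a library left out, the log2 change of POPTR_0004s02500.1 ran from -0.93 to 0.43 and that of POPTR_0001s22830.1 from -0.57 to 0.66, both highs without a PtrSND1-B1 library of 12 h (replicates 1 and 3). Depth limits the 9 members that could not be tested.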

Other observations

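The rule was also applied the other way round, to the PtrSND1-B1 libraries, where 91 genes met it. In the sGFP libraries these 91 had a median 25 h minus 12 h difference of 0.97 on the log2(CPM + 1) scale. It was 1.20 in the libraries that chose them. The sGFP differences ran from -0.33 to 2.08, with 88 above 0, a share that was not counted over all first models. From 7 to 12 h their sGFP median was 0.28, against 0.0873 in the PtrSND1-B1 libraries. Each list thus had a smaller late rise and a less steady start in the series that had not chosen it. The rule selects a large rise and a steady start in the choosing series, so nothing is read from this. The 92 members went from 1.18 to 0.88 and from 0.101 to 0.245 in the same 2 measures.

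Of these 91 genes, 70 were not among the members chosen from sGFP protoplasts. In sGFP protoplasts 55 of the 70 rose in all 3 numbers from 12 to 25 h, and 22 met the rise part of the rule. Another 22 had a mean 12 h minus 7 h difference within 0.3. Genes meeting both conditions in sGFP protoplasts are members and were left out of the 70, so these groups of 22 share no gene by construction. The rise part was met by 410 of the 40668 first models in sGFP protoplasts. Shares of all first models were not counted for the rise in all 3 numbers or the range of 0.3.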
